A study of Mus musculus with 2 samples.

Results

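Endothelial cells, which line the inside of blood vessels, were present among mouse lung cells that had been sorted as epithelium. They were chosen by measured UMIs, as cells with at least 4 of 8 endothelial marker genes detected (Cldn5, Ramp2, Tmem100, Gpihbp1, Foxf1, Plvap, Cdh5 and Pecam1, each with at least 1 UMI, a unique molecular identifier that counts 1 captured transcript) and with less than 20% of their UMIs from Sftpc, the surfactant protein C gene of alveolar type 2 (AT2) cells. Of 19152 cells with at least 2000 UMIs and 500 detected genes and at most 20% mitochondrial UMIs, 851 met this rule and are called endothelial marker cells here. The tumor-bearing library came from a wild-type C57BL/6 mouse 14 days after 1000000 luciferase-labelled LLC cells (a mouse lung cancer line, Lewis lung carcinoma) were placed under the skin of the back. The control library came from an untreated wild-type C57BL/6 mouse without a tumor. Both lungs were digested, and cells negative for CD45 (the pan-leukocyte surface protein) and positive for SftpC were sorted for droplet sequencing. Each group had 1 library, so differences were not tested, none was seen in a second mouse, and effects of the mouse, the sort and the library cannot be told apart. All intervals are exact 95% intervals that cover counting error only.

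As background, gas exchange in the lung takes place across a capillary bed with 2 known kinds of endothelial cell. Aerocytes are large, rich in the carbonic anhydrase Car4, and lie against the thin alveolar type 1 (AT1) cells. General capillary cells express the apelin receptor Aplnr and the lipoprotein lipase anchor Gpihbp1, and act as progenitors of the capillary bed. Arteries and veins of the lung have endothelium of their own, and lung endothelium as a whole is known as a site of leukocyte adhesion, clearance of circulating peptides and response to blood-borne cytokines.

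In the tumor-bearing library 726 of 8165 cells met the rule (8.89%, interval 8.28 to 9.53), against 125 of 10987 cells in the control library (1.14%, 0.948 to 1.35), a ratio of 7.82. The cells lie outside the stated sort gate, so the share depends on how each sort went as well as on each lung, and the part of the sort in this ratio was not tested. In all, the tumor-bearing library held 84448360 UMIs and the control library 91498124. The median endothelial marker cell had 3624 UMIs if tumor-bearing and 4456 UMIs if control, against 8887 and 6881 UMIs in the other cells. Their median mitochondrial share was 2.39% (tumor-bearing) and 2.45% (control). All 8 markers were detected in 428 tumor-bearing cells (59.0%) and in 47 control cells (37.6%). Barcode sequences were shared between the libraries for 128 cells of each, of which 1 was an endothelial marker cell in both.

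In the tumor-bearing library the edges of the rule were less filled on the marker side than on the Sftpc side. In the control library the counts on both sides were similar. Exactly 4 markers were detected in 38 tumor-bearing and 12 control cells, and 3 markers with Sftpc under the limit in 46 tumor-bearing and 22 control cells. Sftpc made up 15 to 20% of UMIs in 89 tumor-bearing and 16 control cells inside the rule, and 20 to 25% in 129 tumor-bearing and 18 control cells with at least 4 markers outside it. Most endothelial marker cells held little Sftpc, with medians of 1.26% (tumor-bearing) and 2.17% (control), against 26.1% and 25.9% in the other cells. Sftpc made up 5 to 20% in 140 tumor-bearing cells (19.3%) and 39 control cells (31.2%). Those cells were deeper, with medians of 11640 UMIs (tumor-bearing) and 7653 UMIs (control), against 3172.5 and 3187 UMIs in cells under 5%.

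**Figure D1:**
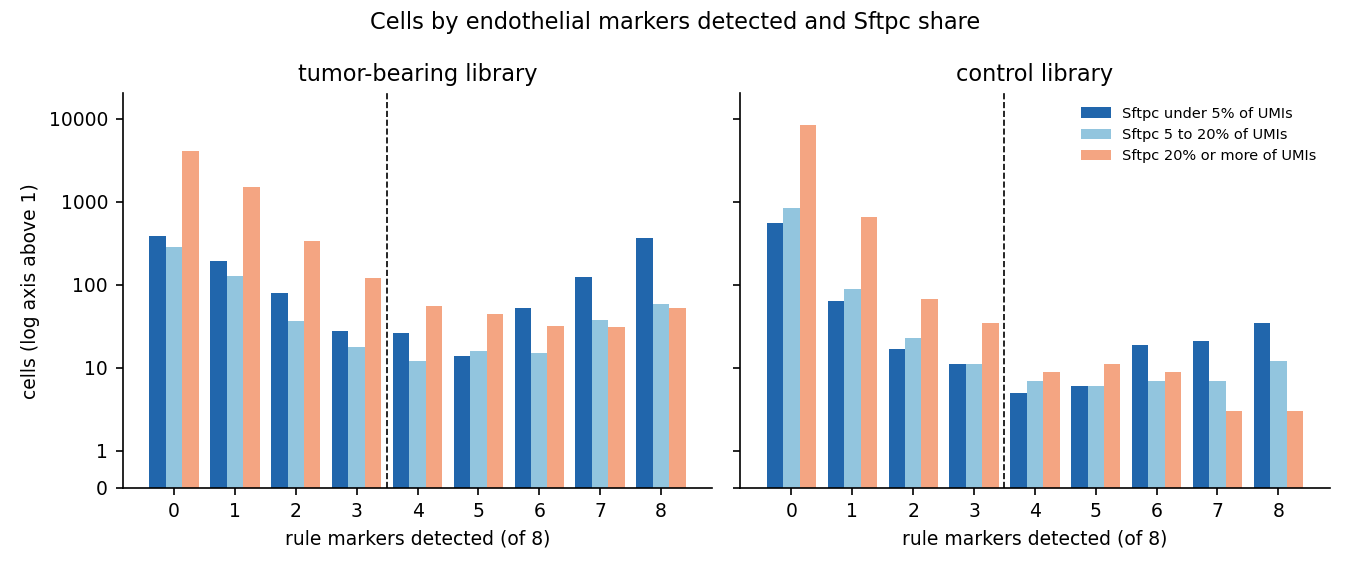
Number of cells (y axis, log scale above 1) by how many of the 8 rule markers had at least 1 UMI (x axis), coloured by the Sftpc share of UMIs, in the tumor-bearing library (left) and the control library (right), with the dashed line at the minimum of 4 markers. In both panels cells with Sftpc under 5% are fewest near 4 or 5 markers and more frequent again at 8 markers, with 369 such tumor-bearing cells and 35 such control cells.

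The label was checked against markers that the rule did not use. Tmem252 had 1072 CPM (UMIs summed over cells and scaled to a total of 1000000) in tumor-bearing endothelial marker cells and 259 CPM in control ones. Car4 had 520 and 516 CPM, and the water channel Aqp1 857 and 532 CPM, again in tumor-bearing and then control cells. The other cells held at most 11.8 CPM of any of these genes in the tumor-bearing library and at most 2.84 CPM in the control library. Over 35 further pan-endothelial genes the summed level was 15228 CPM in tumor-bearing and 10205 CPM in control endothelial marker cells, against 690 and 541 CPM in the other cells and 1906 and 693 CPM in empty droplets (barcodes with 1 to 100 UMIs), and none of the 35 was at 0. Ptprc, which encodes CD45, had 0 UMIs in the endothelial marker cells of both libraries. These genes belong to the same cells as the rule genes, so they describe the cells and were not tested.

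Genes outside the rule with at least 200 CPM in both libraries were ranked by their ratio over the other cells in the tumor-bearing library, and 7 of the 20 highest are described here. Icam2, an adhesion molecule, had 567 CPM in tumor-bearing and 407 CPM in control endothelial marker cells, against 5.71 and 1.29 CPM in the other cells. Hpgd, which breaks down prostaglandins, had 755 CPM in tumor-bearing and 422 CPM in control cells. Ace, the angiotensin-converting enzyme, had 551 CPM in tumor-bearing and 421 CPM in control cells. The BMP receptors and co-receptors Acvrl1 and Eng had 477 and 514 CPM in tumor-bearing cells, against 411 and 387 CPM in control cells. Calcrl, which pairs with Ramp2 to form the adrenomedullin receptor, had 500 CPM in tumor-bearing and 340 CPM in control cells. Thbd, the anticoagulant thrombomodulin, had 390 CPM in tumor-bearing and 308 CPM in control cells.

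Markers of other lineages were also present. AT2 markers summed to 99253 CPM in tumor-bearing and 108239 CPM in control endothelial marker cells, under the 321622 and 337065 CPM of the other cells. AT1 markers summed to 8373 CPM in tumor-bearing and 16473 CPM in control endothelial marker cells, against 3489 and 4213 CPM in the other cells, so the endothelial marker cells held more. Club cell markers summed to 66271 CPM in tumor-bearing and 5881 CPM in control endothelial marker cells, and to 126498 and 23988 CPM in the empty droplets. Ciliated markers summed to 1110 CPM in tumor-bearing and 2541 CPM in control endothelial marker cells, and fibroblast markers to 466 and 823 CPM. Neutrophil markers summed to 48.5 CPM in tumor-bearing cells, and all 7 were at 0 in control cells.

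Clustering of the endothelial marker cells alone gave 4 sub-clusters led by endothelial subtype markers and 7 in which markers of another lineage stood out. The 4 endothelial ones held 471 of the 726 tumor-bearing cells and 56 of the 125 control cells. Genes and sizes of sub-clusters come from the clustering itself and are given as a description. General capillary-like cells numbered 297 in the tumor-bearing library (40.9%, interval 37.3 to 44.6) and 31 in the control library (24.8%, 17.5 to 33.3). Their Gpihbp1 level was 3625 CPM and their Aplnr level 287 CPM over both libraries. There were 79 tumor-bearing (10.9%) and 14 control (11.2%) aerocyte-like cells, with Car4 at 4376 CPM and the endothelin receptor Ednrb at 598 CPM. Arterial-like cells numbered 54 (7.44%) and 10 (8%), in the tumor-bearing and the control library, with the gap junction gene Gja5 at 199 CPM and the chemokine Cxcl12 at 2208 CPM.

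Venous-like cells numbered 41 in the tumor-bearing library (5.65%, interval 4.08 to 7.58) and 1 in the control library (0.80%, 0.0203 to 4.38). They were led by Slc6a2, the noradrenaline transporter, at 1135 CPM, with von Willebrand factor (Vwf) at 2378 CPM and P-selectin (Selp) at 231 CPM. Slc6a2 had 194 UMIs in 46 of all tumor-bearing endothelial marker cells and 1 UMI in 1 control cell. With each cell thinned to 2000 UMIs, at least 3 of 12 venous markers were detected in 71 tumor-bearing cells (9.78%, interval 7.72 to 12.2) and in 5 control cells (4%, 1.31 to 9.09), and these intervals overlap. Without thinning the shares were 20.1% (tumor-bearing) and 15.2% (control). A sub-cluster that is almost all from 1 library may be that library and not a type.

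No lymphatic sub-cluster was found. The lymphatic chemokine gene Ccl21a, which has near-identical copies and so an uncertain count, averaged 1465 CPM in the aerocyte-like sub-cluster and led it beside Car4, and Lyve1, best known from lymphatic vessels, was highest in the arterial-like sub-cluster at 2628 CPM. The sub-cluster counts depended on the clustering. With each library clustered alone, 198 tumor-bearing and 0 control cells were general capillary-like, 25 and 41 were arterial-like, 147 and 0 were venous-like, and 71 and 13 were aerocyte-like. At resolutions 0.3 and 1.0 the arterial-like sub-cluster held 33 tumor-bearing cells and 1 control cell.

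The other 255 tumor-bearing and 69 control cells lay in the sub-clusters that carried markers of other lineages. The sub-cluster with club and AT2 markers held 116 tumor-bearing and 22 control cells and had a median of 9982 UMIs. The sub-cluster with AT1 markers held 49 tumor-bearing and 18 control cells, with 24839 CPM of Ager, the AT1 receptor for advanced glycation end products, and a median Sftpc share of 0.884%. By summed levels, pericyte markers stood out in a sub-cluster of 31 tumor-bearing and 4 control cells, fibroblast markers in one of 20 and 5, red cell markers in one of 16 and 11, AT2 markers with Krt15 in one of 14 and 1, and ciliated markers in one of 9 and 8. The sub-cluster with red cell markers was mixed, with a median of 17462 UMIs, a median Sftpc share of 12.5% and the AT1 genes Spock2 and Aqp5 among its leading genes. At least 3 of 6 red cell markers were detected, without thinning, in only 5 tumor-bearing and 2 control endothelial marker cells. Endothelial markers were still present in these sub-clusters. Gpihbp1 ranged from 192 CPM in the sub-cluster with red cell markers to 2027 CPM in the one with fibroblast markers. Removal of the highest doublet scores took out 62 of 726 tumor-bearing and 12 of 125 control endothelial marker cells. Over all cells it took out 533 of 8165 in the tumor-bearing and 966 of 10987 in the control library.

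**Figure D2:**
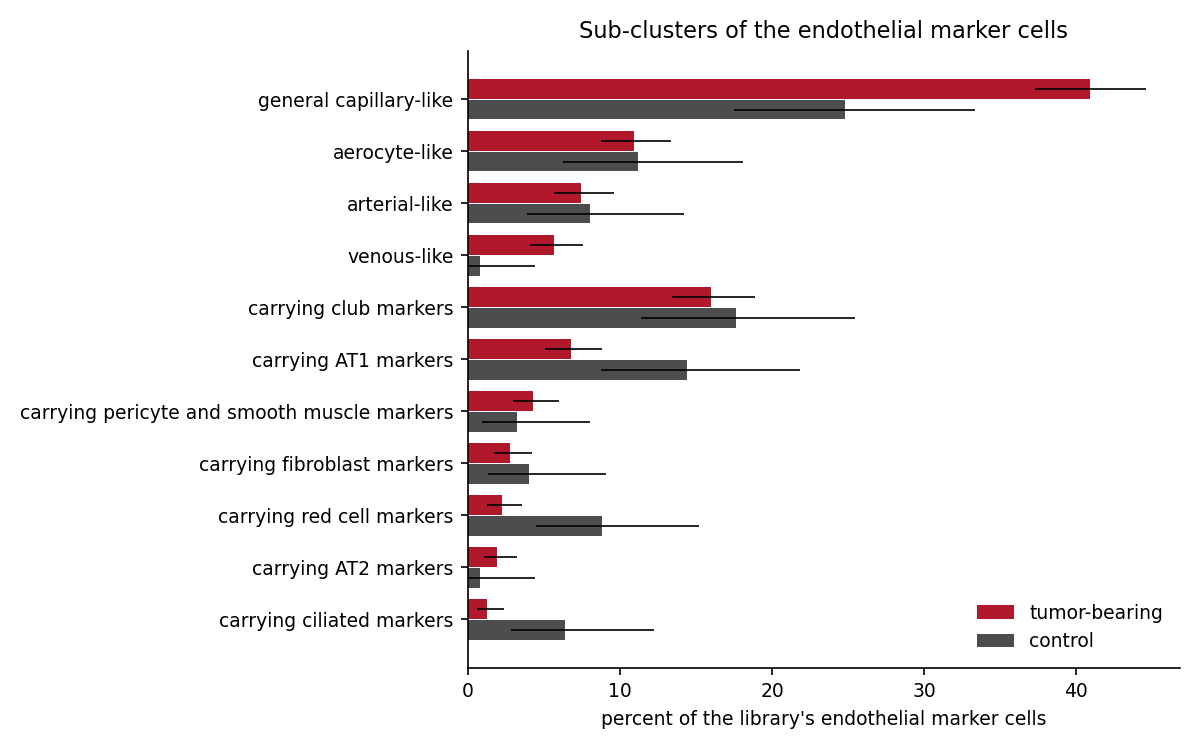
Share of each library's endothelial marker cells (x axis, percent) in each sub-cluster (y axis), for the tumor-bearing (upper bars, 726 cells) and the control library (lower bars, 125 cells), with exact 95% binomial intervals as lines. The general capillary-like bar is longer for the tumor-bearing library (40.9% against 24.8%), and the bars with AT1, red cell and ciliated markers are longer for the control library.

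**Figure D3:**
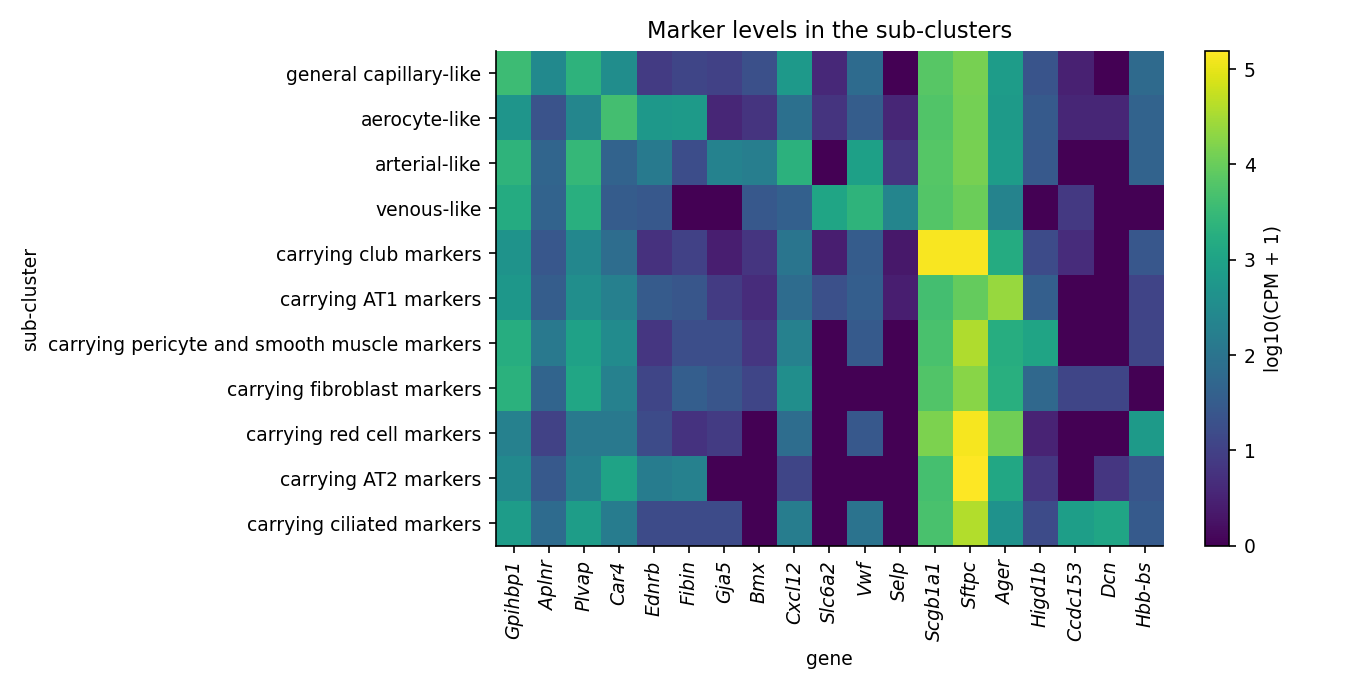
Level of marker genes (x axis) in each sub-cluster (y axis), both libraries summed, as log10(CPM + 1) by colour. Endothelial markers occur in every sub-cluster, while Car4, Gja5, Slc6a2, Scgb1a1 with Sftpc, Ager, Higd1b, Ccdc153 and Hbb-bs each peak in another one.

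Levels in the tumor-bearing library were then set against the control library. A gene counted as measured at 50 CPM or more in either library, and as called when the libraries differed at least 2-fold, with 1 CPM added to each level, and their Poisson intervals were separate. Of 3178 measured genes, 61 were called higher (1.92%) and 105 lower (3.3%) in tumor-bearing endothelial marker cells, and 1 of the higher genes, Foxf1, is a rule gene. Called genes at least 2 times higher in these cells than in the other cells of the same library were set against its empty droplets. Those no lower than in these droplets are called endothelial-enriched, and 53 higher and 79 lower genes were. The name refers to the cells chosen by the rule, mixed droplets included, and not to endothelial origin. The 79 lower genes include the AT1 genes Ager and Pdpn, the ciliated gene Ccdc153 and Dcn, whose 155 control UMIs lay in 1 cell. The calls over all endothelial marker cells compare groups of unlike make-up. The 4 endothelial sub-clusters held 471 of 726 tumor-bearing cells and 56 of 125 control cells. The part of this difference in the calls was not tested. The split between the directions depended on the scaling. With libraries scaled by the median ratio, which moves every log2 ratio up by 0.11, there were 86 higher and 83 lower genes. Among cells with Sftpc under 5%, 90 of 3662 measured genes were called higher (2.46%) and 207 lower (5.65%). Within the 4 endothelial sub-clusters 61 of 3772 measured genes were called higher (1.62%) and 49 lower (1.3%). Within general capillary-like cells, with a minimum of 100 CPM because the control library had 31 such cells, 37 of 1978 were called higher (1.87%) and 27 lower (1.37%). Ratios were above 0 for 1195 of the 3178 genes measured over all endothelial marker cells. The numbers were 1796 of 3772 in the 4 endothelial sub-clusters and 946 of 1978 in general capillary-like cells. General capillary-like cells still held transcripts of other lineages: measured AT2 markers summed to 17986 CPM in tumor-bearing and 31920 CPM in control cells, club markers to 8367 and 2744 CPM, and AT1 markers to 2606 and 2486 CPM, and their part in the calls was not tested. With the same minimum, 1.46% of 2199 genes were called higher and 1.36% lower in aerocyte-like cells, and 0.962% of 2288 higher and 1.66% lower in arterial-like cells. Of the 32 enriched higher genes in general capillary-like cells 17 were among the 53 of all endothelial marker cells, which is 53.1% and 32.1% of the 2 lists, and the lists share cells, so part of the overlap is built in. Of the 20 enriched lower genes 2 were among the 79, Cyp26b1 and Cyp1a1.

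**Figure D4:**
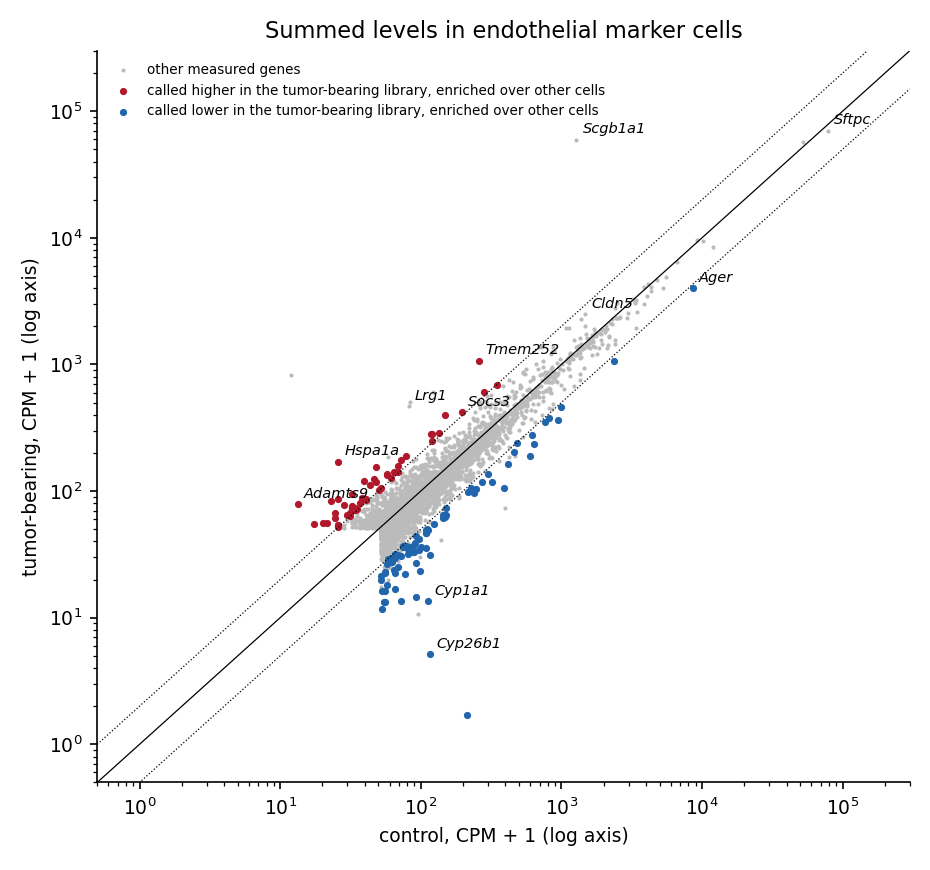
Summed level of each measured gene in endothelial marker cells, tumor-bearing (y axis) against control (x axis), both as CPM + 1 on log axes, with lines at equal levels (solid) and 2-fold differences (dotted). Enriched genes called higher (red) include Tmem252 and Hspa1a, enriched genes called lower (blue) include Cyp26b1, Cyp1a1 and Ager, and Scgb1a1 lies above the lines without being enriched.

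Cyp26b1, which encodes an enzyme that breaks down retinoic acid, was lower in the tumor-bearing library. It had 18 UMIs in 14 of 726 tumor-bearing cells and 84 UMIs in 49 of 125 control cells, or 4.17 CPM (interval 2.47 to 6.60) against 116 CPM (92.2 to 143). The log2 ratio was -4.49, and the most that any 1 control cell held was 7 UMIs, so many cells carried the difference. With cells thinned to 2000 UMIs it was detected in 1.38% of tumor-bearing and 24.8% of control endothelial marker cells, against 0% and 0.157% of the other cells. In general capillary-like cells it had 3 UMIs in 3 of 297 tumor-bearing cells and 27 UMIs in 15 of 31 control cells, a ratio of 0.00984 (0.00191 to 0.0320). In arterial-like cells it had 37.5 CPM in the tumor-bearing and 700 CPM in the control library. In aerocyte-like cells it had 1 tumor-bearing UMI and 2 control UMIs, and was not called.

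Cyp1a1, a monooxygenase gene that is a known target of the aryl hydrocarbon receptor, was lower as well. It had 54 UMIs in 34 tumor-bearing cells and 81 UMIs in 35 control cells, or 12.5 CPM (9.41 to 16.3) against 111 CPM (88.5 to 138), a log2 ratio of -3.06. The call held in each of the 3 subtypes compared: the ratio was 0.0886 (0.0435 to 0.180) in general capillary-like, 0.127 (0.0425 to 0.370) in aerocyte-like and 0.0134 (0.00153 to 0.0539) in arterial-like cells. Arterial-like cells of the control library had the highest level, 933 CPM, against 12.5 CPM in the tumor-bearing library. In the other cells Cyp1a1 had 0.132 CPM in the tumor-bearing and 0.202 CPM in the control library.

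Tmem252, a transmembrane protein gene, was the one of the 3 given markers outside the rule with the largest difference, and was higher in the tumor-bearing library. It had 4624 UMIs in 580 tumor-bearing cells and 188 UMIs in 63 control cells, a ratio of 4.15 (3.58 to 4.82). General capillary-like cells had 2789 CPM in the tumor-bearing and 894 CPM in the control library, aerocyte-like cells 287 and 82.9 CPM, and arterial-like cells 2062 and 194 CPM, and it was called higher in all 3. The control totals in these 3 sets were 81643, 48225 and 25714 UMIs, so the aerocyte-like and arterial-like control levels rest on few UMIs. Cldn5, the endothelial tight junction claudin, is a rule gene, and its 2483 CPM in tumor-bearing and 1468 CPM in control cells are a description of how the cells were chosen. Over all 3178 measured genes 1195 had ratios above 0 and 1.92% were called higher. Of 32 measured pan-endothelial genes outside the rule 31 had ratios above 0, with a median log2 ratio of 0.54, and Tie1, Sox17 and S1pr1 were called higher. In the 4 endothelial sub-clusters together 23 of 34 had ratios above 0, with a median of 0.21 and no call, so these 3 calls were not kept there. In general capillary-like cells 18 of 33 had ratios above 0, with a median of 0.18, and Tie1 and Ly6c1 were called higher.

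The promoters of these genes and of Lrg1, described next, are shown because the comparison of the libraries turns on these genes. Each runs from 250 bases before to 50 bases after the RefSeq transcription start, on build GRCm38.p6, 5′ to 3′ along the gene. Capitals mark GCGTG, the core of the aryl hydrocarbon receptor site, in Cyp1a1, AGGAAG, the core of ETS factor sites, in Cyp26b1 and Lrg1, and AGGTCA, the core of nuclear receptor sites, in Tmem252, on either strand. The windows are chr6:84593761-84594060 (minus strand) for Cyp26b1, chr9:57697363-57697662 (plus strand) for Cyp1a1, chr19:24673758-24674057 (plus strand) for Tmem252 and chr17:56121897-56122196 (minus strand) for Lrg1.
Cyp26b1: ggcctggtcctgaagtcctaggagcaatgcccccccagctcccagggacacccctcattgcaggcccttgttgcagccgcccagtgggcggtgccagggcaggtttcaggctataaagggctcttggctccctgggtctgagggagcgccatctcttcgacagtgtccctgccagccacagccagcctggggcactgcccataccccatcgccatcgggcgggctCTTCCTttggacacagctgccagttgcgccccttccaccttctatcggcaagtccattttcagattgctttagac
Cyp1a1: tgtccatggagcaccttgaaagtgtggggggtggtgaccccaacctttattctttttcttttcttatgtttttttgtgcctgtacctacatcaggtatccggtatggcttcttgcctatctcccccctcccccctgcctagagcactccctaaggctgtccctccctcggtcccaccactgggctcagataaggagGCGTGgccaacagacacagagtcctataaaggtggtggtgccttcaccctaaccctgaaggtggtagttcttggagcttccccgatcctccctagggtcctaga
Tmem252: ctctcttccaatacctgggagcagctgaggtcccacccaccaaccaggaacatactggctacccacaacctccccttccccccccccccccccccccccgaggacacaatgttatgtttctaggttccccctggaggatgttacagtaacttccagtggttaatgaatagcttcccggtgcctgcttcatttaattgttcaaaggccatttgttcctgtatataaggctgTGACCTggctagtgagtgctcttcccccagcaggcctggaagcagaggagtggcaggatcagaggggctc
Lrg1: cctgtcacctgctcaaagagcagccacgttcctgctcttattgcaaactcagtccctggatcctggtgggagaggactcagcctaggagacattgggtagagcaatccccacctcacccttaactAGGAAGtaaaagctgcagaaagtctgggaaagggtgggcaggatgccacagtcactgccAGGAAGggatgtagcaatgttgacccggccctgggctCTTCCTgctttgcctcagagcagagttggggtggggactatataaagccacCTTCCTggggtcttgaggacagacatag
Of 32851 promoters in the table, 32.4% held GCGTG, 35.4% AGGAAG and 16.3% AGGTCA. Cyp1a1 had 1 GCGTG match, Lrg1 had 4 AGGAAG matches, Cyp26b1 had 1 AGGAAG match, and Tmem252 had 1 AGGTCA match. TTCCNGGAA, the site of STAT factors, had no match in these 4 windows and occurred in 1.15% of all promoters. AGGTCA had no match in the Cyp26b1 window, and AGGAAG none in the Tmem252 window. A match in these letters is a description of the sequence and not a bound site.

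A list of 18 acute phase genes and genes listed as tumor-induced in endothelium had 4 measured members. Its members were picked as genes that may be higher with a tumor, so their direction is not independent evidence. All 4 had ratios above 0, with a median log2 ratio of 0.76 beside -0.11 over all measured genes, and Lrg1 and Socs3 were called higher. Lrg1, a secreted glycoprotein that modulates TGF-beta signalling in vessels, had 465 CPM (444 to 485) in tumor-bearing cells and 81.2 CPM (61.8 to 105) in control cells, a ratio of 5.72 (4.42 to 7.55). It was present elsewhere too, at 296 CPM in the tumor-bearing and 205 CPM in the control library in the other cells, and at 243 and 177 CPM in empty droplets, so it was not endothelial-enriched. Within the tumor-bearing library the venous-like cells had the highest level, 709 UMIs in 40 of 41 cells (4651 CPM). General capillary-like cells had 553 CPM in the tumor-bearing and 73.5 CPM in the control library, a ratio of 7.53 (3.44 to 20.6).

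Socs3, which encodes a feedback inhibitor of cytokine receptors, had 418 CPM in tumor-bearing and 195 CPM in control endothelial marker cells, a ratio of 2.14 (1.80 to 2.56). In the other cells its order was the reverse, at 55.2 CPM in the tumor-bearing and 74.5 CPM in the control library. Among general capillary-like cells Socs3 had 953 CPM in the tumor-bearing and 392 CPM in the control library. Neither Socs3 nor Lrg1 was called in aerocyte-like or arterial-like cells, of which the control library had 14 and 10. Stat3, the transcription factor upstream of Socs3, had 192 CPM in tumor-bearing and 73.5 CPM in control general capillary-like cells and was called there, from 177 UMIs in the tumor-bearing and 6 UMIs in the control library. In all endothelial marker cells Stat3 had a log2 ratio of 0.42 and was not called.

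Stress genes showed single members apart from their lists. Hspa1a, an inducible HSP70 chaperone, had 170 CPM in tumor-bearing and 24.8 CPM in control cells, a ratio of 6.86 (4.31 to 11.6). Its level was also higher in the other cells, at 60.5 CPM in the tumor-bearing and 17.0 CPM in the control library, and in empty droplets, at 122 and 31.0 CPM. Hspa1a has a near-identical copy, Hspa1b, at 30.9 CPM in tumor-bearing and 6.88 CPM in control cells, so the split of reads between them is uncertain. The heat shock list had 10 measured members, of which 4 had ratios above 0, with a median log2 ratio of -0.10, which was 0.013 with scaling by the median ratio. Of 19 measured immediate early and dissociation stress genes 15 had ratios above 0, with a median of 0.20, and Socs3 and Ier5 were called higher. Among general capillary-like cells 16 of 19 had ratios above 0, with a median of 0.45 beside -0.04 over all genes measured there. In aerocyte-like cells 16 of 19 did, with a median of 0.24. The direction was not kept in arterial-like cells, where 9 of 19 did. The median there was -0.31, beside -0.19 over all genes measured in arterial-like cells. Dissociation time per sample is not given in the labels, and its part in these values was not tested.

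The receptors, ligands and surface proteins of vessels gave few calls. Among 7 measured genes of the VEGF and angiopoietin systems 6 had ratios above 0, and Tie1, an orphan receptor of the angiopoietin system, was called higher, with 116 CPM in tumor-bearing and 46.8 CPM in control cells. Tie1 was also called in general capillary-like cells, at 254 and 85.7 CPM, but its ratio was 0.78 (0.32 to 2.29) in arterial-like cells. The list did not keep its direction in other sets of cells: 4 of 9 measured genes had ratios above 0 among cells with Sftpc under 5%, with a median of -0.03. In the 4 endothelial sub-clusters 4 of 11 did, with a median of -0.29, where Tie1 was not called and Apln, the ligand of the apelin receptor, was called lower, with 33.7 CPM in tumor-bearing and 94.3 CPM in control cells. Edn1, the endothelin-1 precursor, was lower in general capillary-like cells, with 425 CPM in the tumor-bearing and 870 CPM in the control library. Icam1, a ligand for leukocyte integrins, was higher in general capillary-like cells, with 251 CPM in the tumor-bearing and 98.0 CPM in the control library, the latter from a total of 81643 UMIs. Over all endothelial marker cells Icam1 had 399 CPM in the tumor-bearing and 521 CPM in the control library, the reverse order, beside 192 and 218 CPM in the other cells. Lyve1 had 398 CPM in tumor-bearing and 149 CPM in control cells, and in arterial-like cells 2956 and 583 CPM.

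Among measured coagulation and fibrinolysis genes Vwf and Plat were called higher and F3 lower. In the 4 endothelial sub-clusters together no gene of this list was called, while Vwf and Plat were called higher in arterial-like cells. Venous-like cells held 348 of the 672 tumor-bearing Vwf UMIs. That sub-cluster had 41 tumor-bearing cells and 1 control cell. Adamts9, a secreted metalloprotease gene, had 78.2 CPM in tumor-bearing and 12.4 CPM in control cells, a ratio of 6.31 (3.29 to 13.9). Prx, which encodes periaxin and marks aerocytes, had 118 CPM in tumor-bearing and 38.5 CPM in control cells, and in aerocyte-like cells 574 and 249 CPM.

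Several further genes were called higher in both all endothelial marker cells and general capillary-like cells. Ankrd37, a gene known to be induced by hypoxia, had 93.0 CPM in tumor-bearing and 31.6 CPM in control cells. In general capillary-like cells it had 180 and 24.5 CPM, the latter from few UMIs of a control total of 81643. A list of hypoxia and glycolysis genes did not share this direction. Of its 10 measured genes 7 had ratios below 0, with a median log2 ratio of -0.32, and only Hilpda was called higher. In general capillary-like cells 4 of 7 had ratios below 0, with a median of -0.06 and no call. Nostrin, which binds endothelial nitric oxide synthase, had 141 CPM in tumor-bearing and 67.4 CPM in control cells, and Pde4b, a cyclic AMP phosphodiesterase, 189 and 77.0 CPM. Dusp6, a phosphatase that restrains ERK signalling, had 133 CPM in tumor-bearing and 56.4 CPM in control cells. Bhlhe40, a repressor in the circadian clock, was called in general capillary-like cells, at 165 CPM in the tumor-bearing and 24.5 CPM in the control library, again from few control UMIs. It was not called over all endothelial marker cells, at 89.8 and 48.1 CPM. Gucy1a3, a guanylate cyclase subunit known from pericytes, was called higher over all endothelial marker cells, at 53.6 and 16.5 CPM, beside summed pericyte and smooth muscle markers of 320 CPM in tumor-bearing and 205 CPM in control cells.

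**Figure D5:**
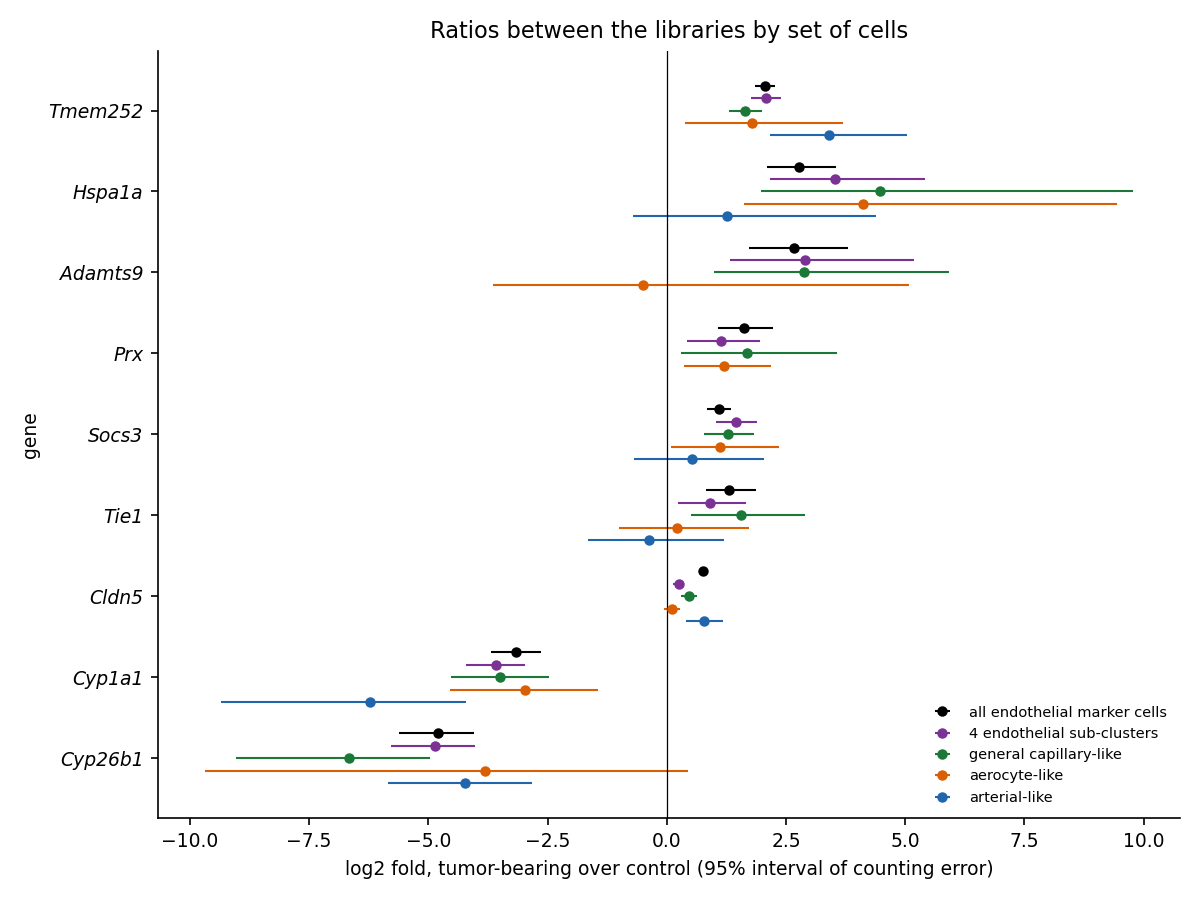
Log2 fold of the tumor-bearing over the control library (x axis, with 95% intervals of counting error) for 9 genes (y axis), in all endothelial marker cells and in 4 narrower sets of cells by colour; sets with 0 UMIs in the control library are not drawn. Tmem252 lies right of 0 and Cyp1a1 left of 0 in all 5 sets, while the intervals of Hspa1a in arterial-like cells and of Cyp26b1 in aerocyte-like cells cross 0.

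Antigen presentation genes gave no call over all endothelial marker cells or in general capillary-like cells. Of 13 measured MHC class I genes 12 had ratios above 0, with a median log2 ratio of 0.11, and in general capillary-like cells 6 of 13 did, with a median of -0.06. B2m, the light chain of MHC class I, had 2776 CPM in tumor-bearing and 2416 CPM in control cells. All 6 measured MHC class II genes had ratios below 0, with a median of -0.23, and all 4 measured in general capillary-like cells did, with a median of -0.83. Cd74, the MHC class II invariant chain, had 1327 CPM in tumor-bearing and 2621 CPM in control general capillary-like cells. The 10 AT2 markers measured in those cells moved the same way, with a median of -0.76, and AT2 cells are known to express MHC class II. Their part in the MHC class II values was not tested. Calls were made in arterial-like cells, where 11 of 13 MHC class I genes had ratios below 0, with a median of -0.47 beside -0.19 over all genes measured there, and H2-Q4 was called lower, with 287 CPM in the tumor-bearing and 778 CPM in the control library. All 4 MHC class II genes measured in arterial-like cells had ratios below 0, with a median of -1.17. Cd74 was called lower there, with 812 CPM in tumor-bearing and 2217 CPM in control cells. Of 9 AT2 markers measured in arterial-like cells 8 also had ratios below 0, with a median of -0.60. Their part in these MHC values was not tested.

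Interferon response genes had 12 measured members with a median log2 ratio of 0.36, and the only call over all endothelial marker cells was Ifit3, lower, with 28.5 CPM in tumor-bearing and 60.5 CPM in control cells. Ifit3 was not called among cells with Sftpc under 5% or in the 4 endothelial sub-clusters, where the list medians were 0.20 and -0.02. Other interferon response genes were called in single subtypes. Ly6c1 was higher in general capillary-like cells, with 3113 CPM in the tumor-bearing and 1482 CPM in the control library. In aerocyte-like cells Ifitm3 had 1419 CPM in the tumor-bearing and 581 CPM in the control library and was called higher, as was Irf1, with 64 tumor-bearing UMIs and 1 control UMI. Ly6e was lower in arterial-like cells, with 862 CPM in the tumor-bearing and 1944 CPM in the control library. The remaining lists are counted without rule genes. Of 15 measured endothelial transcription factors 14 had ratios above 0, beside 1195 of 3178 over all measured genes. Their median was 0.41, and Sox17 was called higher. Among general capillary-like cells 8 of 14 transcription factors had ratios above 0, with a median of 0.18 and no call. Of 10 measured adherens and tight junction genes 4 had ratios above 0, with a median of -0.08, and Jam2 was called higher, with 66.3 CPM in tumor-bearing and 23.4 CPM in control cells. Lists of caveolae, lipid uptake, Notch, BMP and TGF-beta and vasoactive peptide genes had no call over all endothelial marker cells. Their medians lay between -0.05 and 0.39. Lists of extracellular matrix genes and of calcitonin receptor-like and endothelin receptor genes had no call either, with medians of -0.41 and 0.48. In the 4 endothelial sub-clusters 1 lipid uptake gene and 1 extracellular matrix gene were called lower. Since 1.92% of all measured genes were called higher, a single call in a list is not a result about that list.

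The remaining genes with the lowest ratios over all endothelial marker cells were mostly markers of other lineages. Dcn, a fibroblast proteoglycan, had 3 UMIs in 3 tumor-bearing cells and 155 UMIs in 1 control cell, so that 1 cell carried the whole control value. Of 8 measured ciliated markers 6 were called lower, beside 3.3% of all 3178 measured genes. Of these 6, Ccdc153 had 13.5 CPM in tumor-bearing and 90.8 CPM in control cells. Of 12 measured AT1 markers all had ratios below 0, beside 1983 of all 3178 measured genes. Their median was -0.85, and Ager, Rtkn2, Aqp5 and Pdpn were called lower. Ager had 4023 CPM in tumor-bearing and 8577 CPM in control cells, and it was not called in general capillary-like cells, where its log2 ratio was 0.36. Ager was called lower in aerocyte-like cells, with 503 CPM in tumor-bearing and 1825 CPM in control cells, and in arterial-like cells, with 494 and 2256 CPM. Scgb1a1, the main secretoglobin of club cells, had 59549 CPM in tumor-bearing and 1277 CPM in control cells, and 114315 and 14043 CPM in empty droplets. The metallothionein Mt1 had 72.8 CPM in tumor-bearing and 399 CPM in control cells, and it was called lower in the 4 endothelial sub-clusters together, with 18.4 and 75.4 CPM. In aerocyte-like cells Mt1 had 5 tumor-bearing UMIs and 10 control UMIs and was called lower, while general capillary-like cells had 18.4 CPM in the tumor-bearing and 24.5 CPM in the control library, under the minimum for a measured gene.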

How the data were processed

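The files deposited by the authors hold whole-number UMI counts, not normalised, for 28692 gene identifiers and 737280 barcodes per library, with no call of cells. Reads were processed with Cell Ranger 2.1.0 on mm10, per the series design and the submitters' processing notes, which also list R 3.5.3 and Seurat without a stated role. The members and the gene lists were chosen with earlier results of these data known. Cells were filtered and chosen by the stated rule, UMI counts were summed per library and scaled to CPM over all genes, with 1 CPM added for log2 ratios. Intervals are exact: Clopper-Pearson for shares, Poisson for CPM, conditional binomial for ratios. With 1 library per group no count model or test was run. Calculations were tested on simulated data. Sub-clusters came from scanpy 1.11.5, both libraries without integration, with 2000 variable genes, 20 principal components, 15 neighbours and Leiden resolution 0.5, named from fixed markers. The naming rests on rebuilt clusters. Scrublet's automatic threshold marked 0 tumor-bearing cells and 1 control cell, so its scores were used only as an alternative, removing 0.8% per 1000 cells (533 and 966 cells), and mixed droplets remain in the main values. List genes counted as measured at 50 CPM in either library, or 100 CPM in sub-types. Genes were named by rule: the given markers, up to 20 genes highest over other cells, up to 12 enriched genes per direction, up to 4 per list and the leading genes and fixed markers of sub-clusters. B2m, Hspa1b, Nostrin, Pde4b, Dusp6, Apln, Irf1, Ly6e and H2-Q4 were named after their values were seen. One gene that the rule names is not reported here. Gene names came from the files, and 28339 identifiers (98.8%) were in GENCODE vM21. Promoters of 9 of 17 genes looked up were in the RefSeq table, and 5 motifs were searched in them. The motif marked in each printed promoter was chosen after the matches were seen.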

Additional observations from a re-analysis of the deposited data

Results flagged for a closer look

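Barcodes below the 2000 UMI minimum held further cells of this kind. Of 369 tumor-bearing barcodes with at least 1000 UMIs but too few for the minimum, 176 met the marker rule (47.7%, interval 42.5 to 52.9), against 64 of 594 control barcodes (10.8%, 8.40 to 13.5). Cells with at least 4 rule markers but Sftpc at or above 20% of UMIs were left out of the comparisons. They numbered 217 in the tumor-bearing library (2.66% of its cells, 2.32 to 3.03) and 35 in the control library (0.319%, 0.222 to 0.443), with medians of 10504 and 7413 UMIs.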

How the results depend on the processing

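The share of endothelial marker cells was higher in the tumor-bearing library under every alternative for the choice of cells. It was 10.6% against 1.63% with a minimum of 1000 UMIs, 4.42% against 0.678% with 4000 UMIs, 7.18% against 0.783% with Sftpc under 5%, 11.5% against 1.46% with no Sftpc limit, and 7.73% against 0.828% after thinning to 2000 UMIs. The counts of called genes changed with the cells and thresholds, and the cause was not tested. In place of 61 higher genes (53 enriched) there were 40 (33) at 1000 UMIs, 34 (27) with no Sftpc limit, 122 (97) at 20 CPM, 31 (25) at 100 CPM, 95 (89) with cells weighted equally, 155 (150) after subtraction of free RNA and 37 (32) in general capillary-like cells. In place of 105 lower genes (79 enriched) there were 207 (133) with Sftpc under 5%, 65 (49) with no Sftpc limit, 61 (31) after thinning, 240 (176) at 20 CPM, 45 (37) at 100 CPM, 244 (134) after subtraction of free RNA, 49 (35) in the endothelial sub-clusters and 27 (20) in general capillary-like cells. Under the other settings there were 59 to 90 higher and 80 to 129 lower genes. Alternatives in sub-clusters, and one asking for a UMI in 10 cells, were chosen after seeing the data. Over the alternatives the log2 ratio ranged from -6.28 to -4.05 for Cyp26b1, from -3.54 to -2.85 for Cyp1a1, from 1.59 to 2.20 for Tmem252, from 2.31 to 4.37 for Hspa1a and from 1.92 to 4.22 for Lrg1. These ranges leave out aerocyte-like and arterial-like cells taken alone, where ratios can lie outside them. In arterial-like cells alone the log2 ratio of Cyp1a1 was -6.11. Ratios of other named genes reversed. Dcn was at 0.84 with Sftpc under 5%, 0.64 without the highest doublet scores, 0.84 after thinning and 0.71 in the endothelial sub-clusters. Cxcl1 was at -0.39 with Sftpc under 5%, and Cyp2f2 at -0.36 after thinning. In the endothelial sub-clusters Arhgdig and Cyp2s1 were at 1.54, 1110017D15Rik at 0.015, Bst1 at 1.04, Pdpn at 0.20, Rtkn2 at 0.12, Tmem212 at 1.83 and Mt2 at 2.27. In general capillary-like cells Arhgdig was at 2.09, Cyp2s1 and Tmem212 at 1.66, 1110017D15Rik at 2.68, Plac8 at -0.84, Rtkn2 at 0.0054, Ager at 0.36, F3 at 3.10 and Mt2 at 2.91. Control cells were few in the subtypes, with 1 venous-like, 10 arterial-like, 14 aerocyte-like and 31 general capillary-like cells, which limits their precision. No paired analysis was possible because each group had 1 library and no test was run.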
